A study of Mus musculus with 965 samples.

Results

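Mesenchyme-like cells were 61 of the 600 cells taken from embryoid bodies at days 6 and 8 (10.2%, 95% Clopper-Pearson interval 7.87 to 12.9). They were chosen by their own reads: a cell of these 10 plates was a member when it held at least 5 raw reads in 4 or more of 8 markers, Col1a1, Col1a2, Col3a1, Col5a2, Lum, Postn, Pdgfra and Prrx1. The whole table held 965 cells. None of its 365 day 3 cells met the rule, so that at most 0.822% is allowed. In 17 of them 1 marker had at least 5 reads, and in 0 of them did 2 or more.

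Mesenchyme is the loose tissue of the embryo whose cells lie apart in a matrix they secrete. It arises mainly from mesoderm, and in the head also from neural crest, and gives connective tissue, bone, cartilage and smooth muscle. Fibrillar collagens (Col1a1, Col1a2, Col3a1, Col5a2) form its fibres, lumican (Lum) and periostin (Postn) bind them, Pdgfra is a receptor for platelet-derived growth factor, and Prrx1 is a homeobox factor of limb and face mesenchyme.

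The study asked how loss of a de novo DNA methyltransferase bears on differentiation, in E14 mouse embryonic stem cells (ESCs) that formed embryoid bodies (EBs), floating aggregates grown without leukemia inhibitory factor. WT was 1 culture, 3AKO the Dnmt3a-/- clones 3A2 and 3A38, and 3BKO the Dnmt3b-/- clones 3B126 and 3B77. All groups are cell lines cultured alike, and each clone is 1 line. Each plate held sorted live cells of 1 clone at 1 day. The day 6 plates were C300 (3A2), C303 (3A38), C334 (WT), C335 (3B126) and C388 (3B77), and the day 8 plates C307 (3A38), C340 (3B126), C343 and C344 (both WT) and C378 (3B77). The 3AKO cells made up batch 1, the 3B77 cells batch 3, and batch 2 was shared by WT and 3B126. For 3AKO, genotype and batch cannot be told apart. Of the members, 3 in C343 carried the suffix NPM in their titles, which the sources used here do not explain.

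Some plates stood against their labels. Reads of 4 Y-linked genes were used as a mark of origin, and a cell was positive with 3 or more such reads. WT cells of days 3 and 6 were positive in 59 of 141 cases (41.8%) and 3B77 cells of days 3 and 6 in 0 of 150, which allows up to 2%. Yet in the day 8 plate labelled 3B77 (C378) 11 of 40 cells were positive (27.5%), and in the plate C344 labelled WT 0 of 68 were, which allows up to 4.41%. The mark was not frequent in every clone, with 3 of 72 positive cells in each plate of 3A38 and 26 of 80 in the 3A2 plate. The 3B126 plates of days 6 and 8 gave 0 of 58 and 0 of 51, which allow up to 5.17% and 5.88%. A count of 0 thus does not tell 3B77 from 3B126. In the other day 8 plate labelled WT, C343, 3 of 21 cells were positive (14.3%). Among the members, 6 of 20 cells were positive in C378 (30%), 1 of 12 in C343, 2 of 5 in C334, and 0 in C303, C307 and C344. These plates are therefore named by their labels only, and the tests were repeated without each plate. Counts over all members, and those over the 3 plates that are not 3A38, include C378.

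Members held a median of 217546 reads (range 59779 to 1866299) and 4180 detected genes. The other 539 cells of these plates held medians of 261685 reads and 5770 genes. Counts are reads, not molecules, so intervals and limits cover counting error only. CPM are reads summed over the members of a plate, scaled to a common total. A gene had reads in a cell where at least 1 was counted. Percents of members and of other cells with reads are over all 61 members and all 539 other cells of the 10 plates. CPM of other cells are from the 5 plates with enough members only. Such percents therefore also carry differences between plates.

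The share of mesenchyme-like cells differed widely from plate to plate, also between plates of the same label. At day 6, the 3A38 plate held 7 of 72 cells (9.72%, 4 to 19) and the WT plate 5 of 67 (7.46%, 2.47 to 16.6). No member was found in the day 6 plates of 3A2, 3B126 and 3B77, with 80, 58 and 71 cells, which allow up to 3.75%, 5.17% and 4.23%. At day 8, the 3A38 plate held 16 of 72 (22.2%, 13.3 to 33.6) and the plate labelled 3B77 20 of 40 (50%, 33.8 to 66.2). The 2 day 8 plates labelled WT lay at 12 of 21 (57.1%, 34 to 78.2) and 1 of 68 (1.47%, 0.0372 to 7.92), and 3B126 at 0 of 51, which allows up to 5.88%. The WT plates thus held both the highest share at day 8 and the lowest above 0.

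**Figure D1:**
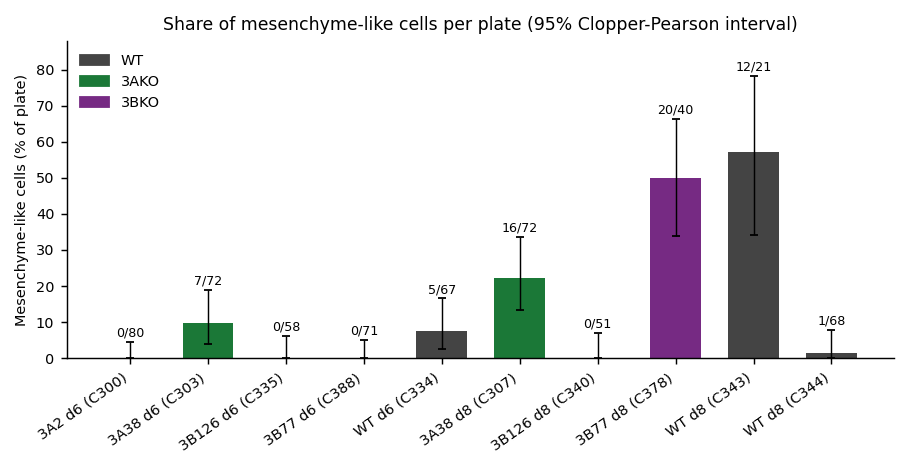
Mesenchyme-like cells as a percent of all cells of each day 6 (d6) and day 8 (d8) plate, coloured by the genotype on the label, with 95% Clopper-Pearson intervals and the number of members over cells. Members were found in 6 of 10 plates, and the plates labelled 3B77 day 8 (20 of 40) and WT day 8 C343 (12 of 21) held the largest shares.

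The comparison of 3BKO with the other clones addressed the formation of mesoderm derivatives without Dnmt3b. At day 6 the 2 plates of 3BKO averaged 0% ± 0 (SD, n = 2). The WT and 3AKO plates averaged 5.73% ± 5.09 (SD, n = 3), and 3BKO minus these was -5.73 points (exact permutation test, two-sided, p = 0.4). At day 8 it was 25% ± 35.4 (SD, n = 2) against 26.9% ± 28.1 (SD, n = 3), a difference of -1.95 (exact permutation test, two-sided, p = 0.9). Here n counts plates, not lines: the 3 others at day 8 were C307 of 3A38 and C343 and C344, both of the 1 WT culture. The WT culture thus enters the day 8 mean, SD and p with 2 plates. With plates as the unit, the smallest p this design allows is 0.1, so neither difference could reach the threshold. The day 8 difference rested on single plates: it was -26.9 without C378 and -14.7 without C344, the plates whose Y-linked reads go against their labels, and -39.7 without both, which leaves 1 plate of 3BKO and 2 others. Without C340 it was 23.1 and without C343 13.2, both with the opposite sign.

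The marker genes lie on several chromosomes (GRCm38, genes as annotated by GENCODE M21), so that the rule does not read 1 locus. Col3a1 (chromosome 1, 45311538 to 45349706, plus strand) and Col5a2 (chromosome 1, 45374321 to 45503282, minus strand) are neighbours. Col1a1 lies on chromosome 11 (94936224 to 94953042), Col1a2 on chromosome 6 (4504814 to 4541544), Lum on chromosome 10 (97565128 to 97572703) and Postn on chromosome 3 (54361109 to 54391037). Pdgfra lies on chromosome 5 (75152292 to 75198215) and Prrx1 on chromosome 1 (163245119 to 163313710). All 8 are protein-coding, and reads were counted over their exons.

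No member held all 8 markers. Of the 61 members, 20 held 4 markers, 13 held 5, 16 held 6 and 12 held 7, and 19 cells just outside the rule held 3. The cells with 4 markers had a median of 387 marker reads (47 to 11860) and those with 3 a median of 164 (44 to 2708), so the border is gradual. These values chose the members and carry no test. Col3a1 had 5 or more reads in 58 members and 17 of the other 539 cells, Col1a2 in 56 and 29, and Col1a1 in 48 and 12. Lum was found in 24 members and 0 other cells, Postn in 37 and 3, Col5a2 in 45 and 42 and Pdgfra in 44 and 53. Prrx1 was the least specific of the 8, with 13 members and 44 other cells.

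**Figure D2:**
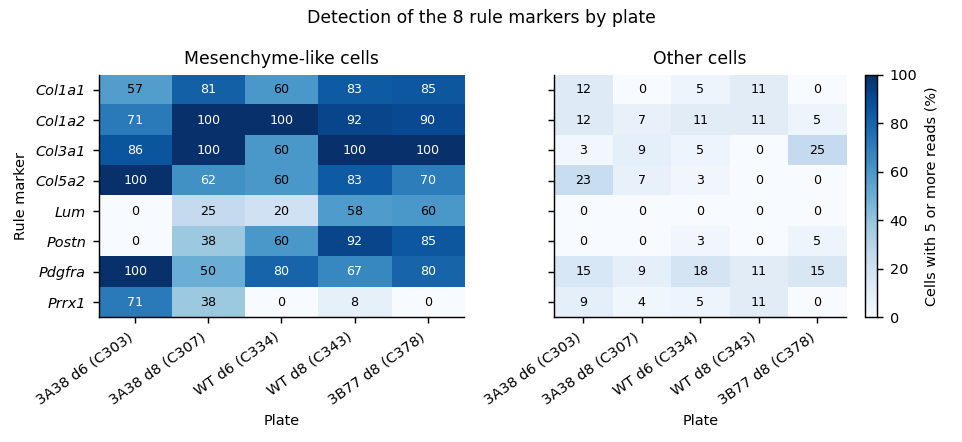
Share of cells, in percent, in which each rule marker had 5 or more reads (rows) in the 5 plates with 5 or more members (columns), for mesenchyme-like cells (left) and the other cells of the same plates (right). Lum and Postn were at 0 in the 3A38 day 6 members, where Prrx1 was most frequent, and Prrx1 was at 0 in the WT day 6 members and those labelled 3B77.

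Prrx1, Lum and Postn, which are rule markers themselves, differed between the members of different plates. Of the 61, 39 held Lum or Postn, 13 held Prrx1, and 2 held Prrx1 with either of the others, while 11 held none of the 3. In the 3A38 day 6 plate 5 of 7 members held Prrx1 and 0 Lum or Postn, and in the 3A38 day 8 plate 6 of 16 held Prrx1, 8 Lum or Postn and 2 both. Prrx1 was found in 0 of 5 members of the WT day 6 plate, 1 of 12 of the WT day 8 plate C343 and 0 of 20 of the plate labelled 3B77. Lum or Postn was found there in 3, 11 and 17 members. The single member of C344 held Prrx1 and neither of the other 2. In C307, the plate with several cells of each kind, 4 members held Prrx1 only, 6 Lum or Postn only and 2 both. Over all members, Prrx1 was found with Lum in 2 cells and with Postn in 0. These values describe the cells the rule took, and a difference between kinds of cells within a plate was not tested.

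The rule read the collagens themselves, so their levels in members are set in part by the choice of cells and are no finding on day. The Col3a1 level was 64.8 and 167 CPM in the day 6 plates of 3A38 and WT, and 2458, 3131 and 3636 CPM in the day 8 plates of 3A38, WT and the label 3B77, and that of Col1a2 45.2 and 254 CPM in the day 6 plates of 3A38 and WT, and 909, 1440.5 and 1277 CPM in the day 8 plates of 3A38, WT and the label 3B77. For these cells, the values in both day 6 plates were the lower ones. The Postn level was 0 and 1202 CPM in the day 6 plates of 3A38 and WT, and 461, 1311 and 1048 CPM in the day 8 plates of 3A38, WT and the label 3B77, so that only the 3A38 day 6 plate stood apart. These CPM are scaled by TMM (trimmed mean of M values), as are all CPM below that compare members between plates.

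Matrix genes that the rule did not read were also higher in the members. For this, the summed reads of members and of the other cells were set side by side within each of the 5 plates with at least 5 of both, as plain CPM and as log2 ratios of CPM + 5. Because the cells were chosen by their own reads, no test applies. Of 9722 genes with a mean of at least 5 CPM over these sums, 426 (4.38%) were higher in members in every plate and 526 (5.41%) lower. Of 21 other matrix proteins measured, 9 were higher in every plate and 0 lower (median log2 ratio 1.92, against -0.04 over all genes). Of 16 genes that fold, trim or crosslink collagen, 6 were higher in every plate (median 1.52). Both shares stood above the 4.38% of all genes.

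Among the matrix proteins, the level of Sparc, a secreted collagen-binding protein, was 643, 145, 585, 1781 and 1289 CPM in the members and 295, 11, 89.6, 82.6 and 285 CPM in the other cells, in the order 3A38 day 6 and day 8, WT day 6 and day 8 and the label 3B77, which is the order used throughout. In each plate the members stood higher, least so in the 3A38 day 6 plate. Fibronectin (Fn1), a bridge between cells and matrix, lay at 455, 177, 504, 1439 and 1440.2 CPM in the members and 190.0, 39.5, 215, 123 and 318 CPM in the other cells. Serpinh1, the chaperone of procollagen, lay at 41.1, 32.5, 49.5, 270.4 and 105 CPM in the members and 28.1, 3.73, 18.7, 19.3 and 14.7 CPM in the other cells. The spread over plates was wide for all 3. They are among the 9 of 21 matrix and 6 of 16 collagen processing genes higher in members in every plate. Their order within plates thus does not stand for the rest of their lists.

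By rank, the 25 genes with the highest median ratio included contractile, matrix and adhesion genes. Acta2, smooth muscle actin, led with a median log2 ratio of 3.77 and lay at 319.7, 119, 903, 631 and 502 CPM in the members and 179, 0.0848, 61.4, 20.7 and 43.4 CPM in the other cells. It had reads in 65.6% of members and 8.35% of other cells. Next came Tgfbi (3.52), a matrix protein that transforming growth factor beta induces, the mesenchymal cadherin Cdh11 (3.48), the membrane protein Pmp22 (3.41) and Nrp1 (3.35), a co-receptor of semaphorins and vascular endothelial growth factor. Further down stood the actin-binding Cald1 (2.54), the follistatin-like Fstl1 (2.32), the microfibril proteins Fbn2 (2.35), Mfap2 (2.17) and Mfap4 (2.15), the glypican Gpc3 (2.27) and Bambi (2.24), a decoy receptor of the same growth factor family. The list also held Rbms3, Fut8, Pcdh7, Anxa5, Colec12, Itm2a, Asb4, Capn6, Rbpms and Tmem98, with medians of 2.14 to 3.06. Of 7 contractile genes measured, 6 were higher in every plate (median 1.49).

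**Figure D3:**
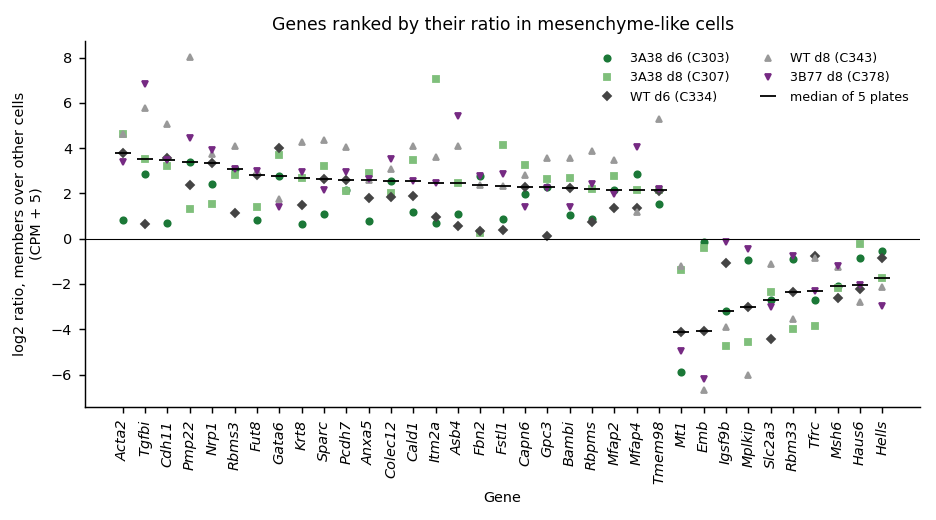
Log2 ratio of the summed CPM + 5 of mesenchyme-like cells over the other cells of the same plate, for the 25 genes with the highest and the 10 with the lowest median among those detected in most of the members or of the other cells and of 1 sign in every plate. Points are plates and the black line is their median, from 3.77 for Acta2 to -4.14 for Mt1.

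An epithelial pair of keratins went with this set. Krt8 had a median ratio of 2.69 and reads in 59% of members and 16.3% of other cells, and Krt18 was also higher in every plate (median 1.64). Of the 9 epithelial genes, 5 had reads in some member, namely these 2, Krt19, Cdh1 and Epcam. Of 4 measured, 2 were higher in members in every plate and 0 lower. Cdh1 had reads in 1 member and Epcam in 2, and Cldn6, Cldn7, Esrp1 and Grhl2 in 0 of 61.

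The 10 genes at the other end shared no list. The metallothionein Mt1 had a median ratio of -4.14 and lay at 0.318, 20.3, 6.26, 25 and 7.86 CPM in the members and 312, 60.6, 193, 64.1 and 396 CPM in the other cells. The glucose transporter Slc2a3 (-2.73), the transferrin receptor Tfrc (-2.30), the mismatch repair gene Msh6 (-2.07), the spindle gene Haus6 (-2.03) and the chromatin remodeller Hells (-1.72) followed, beside Emb (-4.06), Igsf9b (-3.21), Mplkip (-3.03) and Rbm33 (-2.37). The 10 were chosen among genes lower in members in each of the 5 plates, so that this order is no finding. What the other cells are differs between plates, since they hold blood, neural and epiblast cells in unequal numbers.

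Transcription factors of heart, limb and face mesoderm were among the genes higher in members. Of 35 factors on the mesenchyme list, 19 passed the minimum level, 6 of them were higher in members in every plate and 1, Zeb2, was lower in every plate. Gata6, a factor of heart and visceral mesoderm and of endoderm, lay at 69.1, 115, 235, 232 and 175 CPM in the members and 5.77, 4.24, 10.1, 65.8 and 62.5 CPM in the other cells, and had reads in 80.3% of members and 12.8% of other cells. Hand2, a factor of heart, limb and branchial mesenchyme, had reads in 88.5% and 10.8%. Hand1, its relative of the lateral and extraembryonic mesoderm, had reads in 52.5% and 5.75%, and Tbx20, a heart factor, in 54.1% and 2.97%. Snai2, which represses epithelial genes, had reads in 47.5% and 5.01%. With every cell thinned to 50000 reads, a median of 7 of the 35 factors (range 3 to 13) was found per member and 2 (0 to 13) per other cell, against 9 and 3 without thinning.

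The members did not all use the same factors. Hand1 lay at 131 and 1.84 CPM in the 3A38 day 6 and day 8 plates, 181 and 176 CPM in the WT day 6 and day 8 plates and 70.9 CPM in the plate labelled 3B77 day 8, with reads in 2 of 16 members of the 3A38 day 8 plate. Alx1, a factor of the craniofacial mesenchyme, showed another order, 14.4 and 215 CPM in the 3A38 day 6 and day 8 plates, 0 and 7.07 CPM in the WT day 6 and day 8 plates and 14.5 CPM in the plate labelled 3B77 day 8. It had reads in 3 of 7 and 7 of 16 members of the 3A38 plates, against 0 of 5, 1 of 12 and 1 of 20. Tbx20 lay at 16.3 and 38.6 CPM in the 3A38 day 6 and day 8 plates, 68.2 and 171 CPM in the WT day 6 and day 8 plates and 109 CPM in the plate labelled 3B77 day 8, and was lower in both 3A38 plates than in the other 3. Tbx15 had reads in 1 member, Tbx18 in 2 and Meox2, Osr2 and Foxd1 in 0. Of the Hox list, which marks position along the body, 28 of 36 genes had a read in some member, but none in more than 24.6% of them. That highest share was Hoxa10, at 0 and 37 CPM in the 3A38 day 6 and day 8 plates, 4.09 and 8.13 CPM in the WT day 6 and day 8 plates and 21.3 CPM in the plate labelled 3B77 day 8. Hoxa2, a gene of the hindbrain and branchial arches, lay at 74.9 and 189.8 CPM in the 3A38 day 6 and day 8 plates, 0 and 0 CPM in the WT day 6 and day 8 plates and 31.4 CPM in the plate labelled 3B77 day 8.

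Receptors and secreted ligands were in part higher in members. Of 12 growth factor receptors, 6 were higher in members in every plate, among them Pdgfrb, the second receptor for platelet-derived growth factor, with reads in 45.9% of members and 8.35% of other cells. Of 17 measured growth factors and antagonists, 6 were higher in every plate. Cxcl12, a chemokine that holds blood stem cells, had reads in 49.2% and 16.5%, and Bmp4 in 50.8% and 19.1%. Igfbp5, a binding protein of insulin-like growth factors, had reads in 77% and 18.4%.

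No member met the same rule of 5 reads in 4 genes for endothelial, red blood, macrophage, neural progenitor, neuron, epiblast, primitive streak or endoderm lists, against 24, 26, 8, 70, 66, 143, 15 and 2 of the 539 other cells. Single genes of these lists were read in members all the same. Of 8 endothelial genes, 6 had reads in some member. These were mainly Tek, the angiopoietin receptor, in 17 members, and Kdr, the receptor for vascular endothelial growth factor, in 14, while Cdh5 and Pecam1 had reads in 2 each, Emcn and Cldn5 in 1 each and Tie1 and Esam in 0. Summed over the list, WT day 6 members held 292.1 CPM and the other cells of that plate 176.3 CPM, with Tek in 4 of 5 members at 252 CPM. In the other 4 plates the sum was 3.1 to 211.3 CPM in members and 0.1 to 529.4 CPM in other cells. Thinned to 50000 reads, WT day 6 members held a median of 2 endothelial genes and those of the label 3B77 a median of 1, against 0 in the other cells of both plates. The part of these genes in the results was not tested.

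Of the neural crest genes, Sox10, Foxd3, Tfap2a and Tfap2b had reads in 0 members, Ets1 in 19 and Ngfr in 4. Ets1, which endothelial and mesodermal cells also use, lay at 1.27, 7.85, 0.569, 31 and 69.4 CPM in the members and 21.6, 0.0566, 12.1, 3.85 and 14.9 CPM in the other cells. It was higher in members in 3 of the 5 plates, the 3A38 day 8 plate, C343 and C378.

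Of the cartilage and bone list, the transcription factors Sox5 and Sox6 were higher in members in every plate, 2 of 3 measured genes (median log2 ratio of the 3, 1.44). Sox5 had reads in 23 members and Sox6 in 21. The list summed to 75.6 to 134.3 CPM in members and 2.9 to 72.3 CPM in other cells, and was higher in members in each plate. Sox9, the third measured gene, had reads in 7 members and was higher in members in 0 plates. Acan, Ibsp and Matn1 had reads in 0 members, Alpl in 1, Col2a1 in 2 and Runx2 in 3. Of 5 fat genes, Pparg, Cebpa, Adipoq and Plin1 had reads in 0 members and Lpl in 14.

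Of 8 macrophage genes, 2 had a read in some member, and Csf1r, Cd68, Spi1, Tyrobp, Adgre1 and Fcgr3 in 0. Of 8 epiblast genes, 6 had a read in some member, and the pluripotency gene Pou5f1 in 0. Summed over the epiblast list, C343 held 15.1 CPM in the members and 1.4 CPM in the other cells. In each of the remaining member plates the members stood lower, with 0.7 to 8.3 CPM against 9.8 to 249.0 CPM. The neuron gene Stmn2 had reads in 14 members, and in C343 lay at 297 CPM in the members and 9.1 CPM in the other cells. The embryonic globin Hbb-bh1 had reads in 5 of the 7 members of C303 and in no other member, at 2.87 CPM, while the other cells of that plate held 13098 CPM. Mesothelial Bnc1 was higher in members in every plate, with reads in 39.3% of members and 0.928% of other cells. Upk3b and Wt1, of the same lining tissue, had reads in 13.1% and 19.7% of members.

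Median numbers of cell division genes were higher in day 6 than in day 8 members. Each cell was thinned to 50000 reads, and the number of 18 genes of G2 and M phase with a read was counted. The 7 members of the 3A38 day 6 plate held a median of 16 (10 to 18) and the 5 of the WT day 6 plate 6 (3 to 18). At day 8 the median was 0 (0 to 16) in 16 members of 3A38, 1 (0 to 18) in 12 of WT and 1 (0 to 16) in 20 of the plate labelled 3B77. Without thinning, the medians were 18 and 10 at day 6 and 1, 2 and 1.5 at day 8. Both day 6 medians lay above all 3 day 8 medians. At least 9 of the 18 genes were found in 7 of 7 and 1 of 5 day 6 members, and in 2 of 16, 4 of 12 and 4 of 20 day 8 members, so the WT day 6 plate was not above the WT day 8 plate by that count. The other cells of the plates also had lower medians at day 8, with 11 and 12 at day 6 and 1, 2 and 7.5 at day 8. Members held a median of 4778 and 4010 genes at this depth at day 6 and of 2906.5, 2761.5 and 2940.5 at day 8. The part of this lower gene number in the fewer division genes was not tested.

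**Figure D4:**
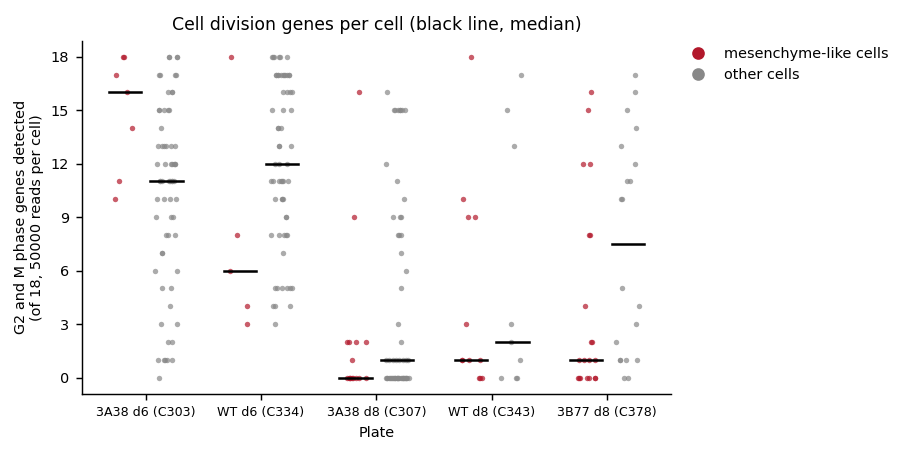
Number of 18 G2 and M phase genes with a read in each cell thinned to 50000 reads, for mesenchyme-like cells (red) and other cells (grey) of the 2 day 6 and 3 day 8 plates. Black lines are medians, 16 and 6 in day 6 members and 0, 1 and 1 in day 8 members.

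The question of day 8 against day 6 within the members was tested on their reads summed per plate, with edgeR's quasi-likelihood test over 2 day 6 plates (3A38 and WT) and 3 day 8 plates (3A38, WT C343 and the label 3B77). No gene passed a Benjamini-Hochberg adjusted p of 0.05, 0 of 9811 (0%), with 685 genes at an unadjusted p under 0.05, 506 higher (5.16%) and 179 lower (1.82%). DESeq2 called 239 genes on the same sums, edgeR without a filter on low counts 111, and limma on the mean log2(CPM + 1) over cells 1. The count was 0 without any 1 plate, C378 and C343 included. The plates are 3A38 and WT at both days and the label 3B77 at day 8 only, from 1 pool of EBs each. A p thus measures the spread between plates. Clone, genotype and batch of the label 3B77 enter at day 8 only, so they overlap with day in part.

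Lists of genes were compared by the order of their plates, not by a test. Higher in every day 8 plate than in both day 6 plates were 12.1% of all genes, and lower in every day 8 plate 12.2%. Of 18 G2 and M phase genes 8 were lower at day 8 in this sense and 1 higher (median log2 fold change -1.38, against 0.23 over all genes), and of 12 S phase genes 5 were lower and 0 higher (median -1.33). Ube2c, which marks cyclins for decay in mitosis, lay at 444 and 104 CPM in the day 6 plates of 3A38 and WT, and 20.5, 66.1 and 16.1 CPM in the day 8 plates of 3A38, WT and the label 3B77. Of 17 growth factors and antagonists 6 were higher and 1 lower (median 1.95), of 24 transcription factors 5 and 1 (median 0.73), and of 21 matrix proteins 4 and 2 (median 1.02). The matrix proteins thus went both ways, not far from the shares of all genes. Nr2f2, a nuclear receptor of mesenchyme and veins, lay at 2.83 and 0 CPM in the day 6 plates of 3A38 and WT, and 368, 85.5 and 20.5 CPM in the day 8 plates of 3A38, WT and the label 3B77, and Tbx5, a factor of heart and forelimb, at 0.236 and 0 CPM in the day 6 plates of 3A38 and WT, and 20.2, 36.4 and 21.9 CPM in the day 8 plates of 3A38, WT and the label 3B77. Of 17 collagen folding genes 2 were higher and 0 lower, about the share of all genes, with a median of 1.02.

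The 10 genes with the smallest p for day were not called (edgeR's quasi-likelihood test, all with an adjusted p of 0.696). Cpt1a, which takes fatty acids into mitochondria, lay at 0 and 0 CPM in the day 6 plates of 3A38 and WT, and 294, 94.4 and 74.6 CPM in the day 8 plates of 3A38, WT and the label 3B77. It had reads in 0 of 12 day 6 members, which allows up to 25%, and in 15 of 48 day 8 members (31.3%, 18.7 to 46.3). Nfia, a transcription factor of many late progenitors, lay at 0.236 and 0.682 CPM in the day 6 plates of 3A38 and WT, and 207, 219 and 33.2 CPM in the day 8 plates of 3A38, WT and the label 3B77, and had reads in 2 of 12 and 30 of 48 members. It was the most widely detected of the 10 at day 8. Smoc2, a matrix protein, lay at 0.236 and 0 CPM in the day 6 plates of 3A38 and WT, and 19.7, 96.1 and 181 CPM in the day 8 plates of 3A38, WT and the label 3B77, with reads in 1 and 19 members. Gucy1a1, a subunit of the nitric oxide receptor, had reads in 1 of 12 and 17 of 48, Cyp1b1, an oxidase of retinoids and steroids, in 0 and 9, and the signalling inhibitor Socs2 in 1 and 12. Wt1, the mesothelial factor named above, had reads in 0 and 12, Lratd1 in 0 and 6, Gm43696 in 0 and 13. Zfp583 alone stood lower at day 8, with reads in 4 of 12 and 1 of 48.

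The second test within the members set the Dnmt3a-/- clone 3A38 (2 plates) against the other 3, with day as a term. The targeted gene came first as a check of the labels. Dnmt3a lay at 0 and 0.612 CPM in the 3A38 day 6 and day 8 plates, 33.4 and 109 CPM in the WT day 6 and day 8 plates and 29.3 CPM in the plate labelled 3B77 day 8, and had reads in 3 of 23 members of 3A38 (13%, 2.78 to 33.6) and 27 of 37 others (73%, 55.9 to 86.2). Both 3A38 plates lay below the other 3, but the gene was not called (log2 fold change -7.47 ± 1.97 (SE), adjusted p = 1 by edgeR's quasi-likelihood test). Dnmt3b lay at 5.65 and 0.459 CPM in the 3A38 day 6 and day 8 plates, 6.82 and 11 CPM in the WT day 6 and day 8 plates and 1.39 CPM in the plate labelled 3B77 day 8, with reads in 1 of 20 members of the plate labelled 3B77, and in 3 of 7, 1 of 16, 2 of 5 and 2 of 12 members of the others, in the same order, so that at this level it does not check that label.

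No gene was called between 3A38 and the other plates either, 0 of 9811 (0%), with 444 at an unadjusted p under 0.05, 264 higher (2.69%) and 180 lower (1.83%; edgeR's quasi-likelihood test). DESeq2 called 184 genes, edgeR without a filter 54, and limma 0. The count was 173 without C303, 183 without C334 and 14 without C307, where a day or a genotype is left with 1 plate, and 0 without C343 or C378. Only clone 3A38 gave 3AKO members, all of batch 1, so genotype, clone and batch cannot be told apart here.

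By the order of plates, imprinted and collagen processing genes were more often lower in 3A38 than all genes were. Lower in both 3A38 plates than in the other 3 were 7.87% of all genes and higher 9.62%. Of 15 imprinted genes, which are expressed from 1 parental copy marked by DNA methylation, 8 were lower and 0 higher (median log2 fold change -1.32, against 0.04 over all genes). Of 17 collagen folding and crosslinking genes 11 were lower and 0 higher (median -1.57), and of 21 other matrix proteins 6 and 0 (median -0.54). Of 24 transcription factors 3 were higher and 1 lower, near the shares of all genes. The rule markers themselves summed to 614.2 and 3398.9 plain CPM in the 3A38 day 6 and day 8 members. Sums were 1623.2 and 9203.0 CPM in the WT day 6 and day 8 plates and 10461.7 CPM in the plate labelled 3B77 day 8. The part of these levels in the lower collagen processing genes was not tested.

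Peg3, a paternally expressed zinc finger gene, was read in every member and lay at 1290.3 and 2886 CPM in the 3A38 day 6 and day 8 plates, 7236 and 10946 CPM in the WT day 6 and day 8 plates and 9834 CPM in the plate labelled 3B77 day 8 (log2 fold change -2.12 ± 0.65 (SE), adjusted p = 1 by edgeR's quasi-likelihood test). The median over cells was 2138 and 2212 CPM in the 3A38 plates, 2338 in WT day 6 and 8298 and 8255 in the day 8 plates labelled WT and 3B77, unscaled. By the cells' median, WT day 6 thus stood near 3A38. Ndn, another paternally expressed gene, lay at 164 and 243 CPM in the 3A38 day 6 and day 8 plates, 295 and 641 CPM in the WT day 6 and day 8 plates and 444 CPM in the plate labelled 3B77 day 8, and Meg3, a maternally expressed RNA, at 147 and 88 CPM in the 3A38 day 6 and day 8 plates, 377 and 278 CPM in the WT day 6 and day 8 plates and 190.5 CPM in the plate labelled 3B77 day 8. Impact and Igf2 overlapped between the groups: Igf2, the fetal growth factor, lay at 6.12 and 14.1 CPM in the 3A38 day 6 and day 8 plates, 6.82 and 12.4 CPM in the WT day 6 and day 8 plates and 5.17 CPM in the plate labelled 3B77 day 8.

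Plagl1, an imprinted growth regulator (chromosome 10, 13060504 to 13131694, plus strand), had the smallest p of all genes, with an adjusted p of 0.158 (edgeR's quasi-likelihood test). It lay at 0 and 0 CPM in the 3A38 day 6 and day 8 plates, 3534 and 894 CPM in the WT day 6 and day 8 plates and 1417 CPM in the plate labelled 3B77 day 8. The high levels came from few cells: 1 of 5, 2 of 12 and 3 of 20 members, against 0 of 7 and 0 of 16. As shares of cells these are 6 of 37 (16.2%, 6.19 to 32) against 0 of 23, which allows up to 13%. Without the day term its adjusted p was 0.0496. Peg10, also imprinted, had reads in 6 of 37 and 1 of 23.

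**Figure D5:**
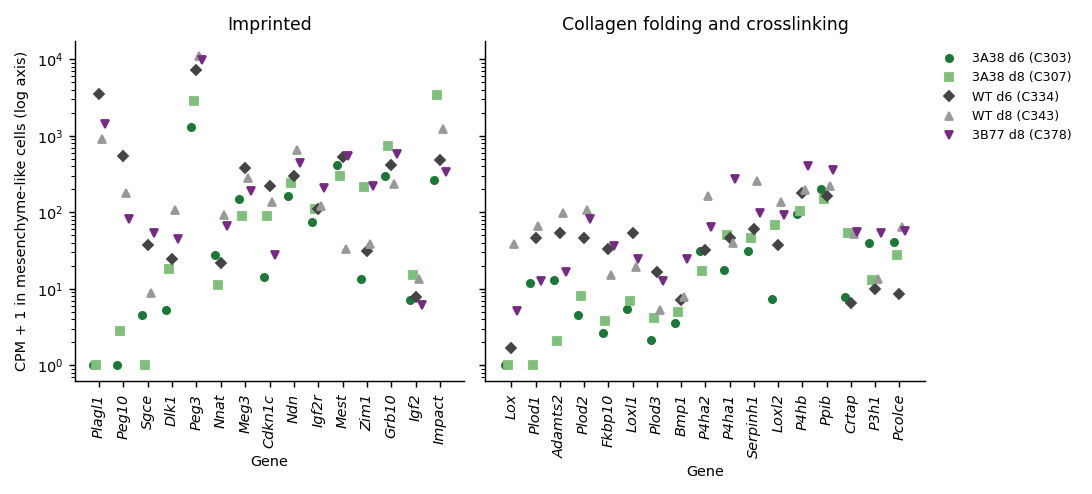
CPM + 1 (log axis, TMM-scaled) of imprinted genes (left) and collagen folding and crosslinking genes (right) in the summed mesenchyme-like cells of each of 5 plates, ordered by fitted fold change of 3A38 against the rest. Of these, 8 of 15 and 11 of 17 were lower in both 3A38 plates (green) than in the other 3.

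Among the collagen processing genes, Plod2, a lysyl hydroxylase, lay at 3.53 and 7.04 CPM in the 3A38 day 6 and day 8 plates, 45 and 106 CPM in the WT day 6 and day 8 plates and 79.8 CPM in the plate labelled 3B77 day 8. Fkbp10, a chaperone of collagen, lay at 1.65 and 2.75 CPM in the 3A38 day 6 and day 8 plates, 32.1 and 14.1 CPM in the WT day 6 and day 8 plates and 35 CPM in the plate labelled 3B77 day 8, and Serpinh1 at 30.4 and 45.6 CPM in the 3A38 day 6 and day 8 plates, 59.3 and 253 CPM in the WT day 6 and day 8 plates and 95.9 CPM in the plate labelled 3B77 day 8. The crosslinking oxidase Lox had reads in 0 of 23 members of 3A38 and in 1, 2 and 5 members of the other plates. Ppib and Pcolce, of the same list, overlapped between the groups.

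The other 9 genes with the smallest p for 3A38 had adjusted p of 0.667 for Jag1 and 1 for the rest (edgeR's quasi-likelihood test). Jag1, a Notch ligand, had reads in 11 of 23 members of 3A38 (47.8%, 26.8 to 69.4) and 0 of 37 others, which allows up to 8.11%. It lay at 51.6 and 1114 CPM in the 3A38 day 6 and day 8 plates. Ndnf, a secreted neurotrophic factor, had reads in 14 of 23 (60.9%, 38.5 to 80.3) and 1 of 37 (2.7%, 0.0684 to 14.2). By plate, Jag1 had reads in 6 of 7 and 5 of 16 members of 3A38 and Ndnf in 4 of 7 and 10 of 16. Both genes were picked by this comparison, and the cells of a plate are not replicates, so the intervals describe these cells only. Ptn, a heparin-binding growth factor, lay at 21.9 and 7526 CPM in the 3A38 day 6 and day 8 plates, 0 and 290.1 CPM in the WT day 6 and day 8 plates and 248 CPM in the plate labelled 3B77 day 8, so 1 plate stood far above the others. Tex15, Draxin and Chl1 had reads in 6, 4 and 4 of 23 and in 1, 0 and 0 of 37. Cd55, a regulator of complement, had reads in 0 of 23 and 6 of 37, and Per3 and Bola1 in 5 and 12 of 23 and in 6 and 12 of 37.

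Across all 9811 genes, the rank correlation of levels between pairs of member plates was 0.526 to 0.624 (Spearman's rho, a description across genes, which are not replicates). The 2 plates of 3A38 stood at 0.526, no closer than plates of different labels, and the plates labelled WT day 8 and 3B77 day 8 at 0.613.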

How the data were processed

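Single cells from 10 plates (days 6 and 8), of 965 in all, were analysed. The authors sorted live cells, amplified them by a modified Smart-seq2 protocol without molecular identifiers and deposited raw counts per gene. Per their methods and processing notes reads were aligned with STAR 2.7.1a to mm10/GRCm38 after trimming (Trim Galore 0.5.0, quality by FastQC 0.11.2), and counted on exons with featureCounts 1.6.1, without multi-mapped reads, which lowers counts of near-identical genes. Strand was not stated in the sources consulted. All cells met the authors' limits, with at least 50096 reads, 2005 genes and at most 49.2% mitochondrial reads. Doublets were not called. Some genes of the neural crest list are not reported here. Genes absent from at least 1 batch numbered 12104.

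The members and all gene lists were chosen with earlier results of these data known. Lists held 372 symbols, 8 of them not in the table. Cells are not replicates: counts were summed over the members of each plate with at least 5 (1756398 to 9170660 reads), filtered with filterByExpr (9819 genes) and tested with edgeR 4.0.16 (TMM factors 0.722 to 1.37, glmQLFit, robust, then glmQLFTest) in R 4.3.3. Benjamini-Hochberg adjustment ran over all 9819 genes, and counts leave out the 8 rule markers. Common dispersions were 1.20 (day) and 1.13 (3A38), with 3 and 2 residual degrees of freedom. The SE beside a fold change is its size over the square root of the test's F statistic, not a value edgeR gives. Shares were compared by exact permutation over plates. Named genes were those of smallest p (10 per test, fewer than 5 being called), the 25 highest and 10 lowest ratios to other cells of 1 sign in every plate, and list members with large and small values. Dnmt3a, Peg3 and genes that show which lineages were absent were named in addition, after their values were seen. Alternatives used DESeq2 1.42.0, limma 3.58.1, other thresholds and plates left out. On simulated counts with the dispersions of these data the fits called none of the planted changes, and with a low dispersion most of them. Whether plates pair by clone could not be judged from a clone with 1 plate.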

Additional observations from a re-analysis of the deposited data

Results flagged for a closer look

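Of the members in the plate labelled 3B77 day 8, 30% (6 of 20 cells) held 3 or more reads of Y-linked genes, a signal outside the comparisons above. It is set against 0 of 150 cells of the same clone at days 3 and 6, which allows up to 2%. The plate's other cells gave 5 of 20, and the members of the WT plates C334 and C343 gave 2 of 5 and 1 of 12. The label of the plate thus stands in doubt for every value given for 3B77 day 8. No group held between 4 and 10 plates, so no plate was tested for standing apart from its group.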

How the results depend on the processing

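The share of members over all plates (10.2%) was 13.3% with 3 markers required, 6.83% with 5, and 7.33%, 7.33% and 7.67% with Col1a2, Col3a1 or Pdgfra left out. It lay within its interval under the other 9 settings, and no day 3 cell was a member under any of the 15. The share difference of 3BKO ran from -8.59 to -3.73 percentage points at day 6 with 1 plate left out. At day 8 it ran from -26.9 to 23.1, and was positive without C340 (23.1) and without C343 (13.2). Without C378 and C344, chosen after seeing the data, it was -39.7. With other thresholds of the rule, both differences kept their sign and did not pass the test.

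Calls of genes depended on the tool. For day 8 against day 6, 0 calls became 111 without a filter, 239 with DESeq2 and 1 with limma, and 0 with each plate left out in turn. For 3A38 against the rest, 0 became 54, 184 and, without the day term, 1, and 0 to 183 with 1 plate left out. Where this left a day or a genotype with 1 plate, that plate was assumed to vary like the others. Leaving out genes that lack reads in a batch, chosen after seeing the data, gave 0 for both. The named genes, none of which was called, passed the threshold in 65 of their alternative values and did not in 195, and the sign turned in 0. The log2 fold change of Cd55 for 3A38 was 0 without C307, which was not counted as a turn. With the replicate block of clone and day, which pairs the plates of 3A38 and of WT only, 0 genes were called (467 at an unadjusted p under 0.05). The labels hold no number that pairs plates otherwise. The count of matrix and collagen processing genes higher in members in every plate (15 of 37) was 15 to 20 with 1 plate left out, 15 with a pseudocount of 1 and 21 by the share of cells with a read. The cause of these changes was not tested.

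The number of cells and plates limits what can be seen: 12 day 6 members allow a share of up to 25% for a gene with no reads, and a residual of 2 or 3 degrees of freedom at a dispersion above 1 leaves a count of 0 calls without weight on whether the genes differ.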

Other observations

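Levels of a ligand and a keratin also followed the order of days between member plates. Bmp4, a morphogen of lateral mesoderm, lay at 209 and 39.9 CPM in the 3A38 day 6 and day 8 plates, 75 and 19.1 CPM in the WT day 6 and day 8 plates and 10.5 CPM in the plate labelled 3B77 day 8. Both day 6 plates stood above every day 8 plate, and the 3A38 day 6 plate was the highest. Krt18 lay at 119 and 1.84 CPM in the 3A38 day 6 and day 8 plates, 384 and 9.9 CPM in the WT day 6 and day 8 plates and 14.7 CPM in the plate labelled 3B77 day 8, highest in the day 6 plates. Basement membrane genes were higher in members in every plate for 0 of 9 measured, with a median log2 ratio of 1.15. The levels are TMM-scaled, the ratio is of plain CPM + 5, and all were chosen after they were seen. No gene was called for day by edgeR's quasi-likelihood test, and the ratio was not tested.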
